A study of Mus musculus with 15 samples.

Results

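Immediate early genes, NF-kB feedback genes and heat shock genes were followed array by array in 5 sorted populations of the mouse small intestinal lamina propria (LP). The set was a list of 40 named genes, and 39 of them had a probeset carrying their symbol alone, out of 19938 genes measured in this way. Hspa1b, which encodes one of the paired inducible HSP70 proteins, shared its only probeset with Hspa1a and therefore has no value of its own. The populations were CD64+ macrophages (mϕ), sorted as CD45+Ly6C-MHCII+CD64+CD11b+ cells, and CD64- dendritic cells (DCs) divided into 4 subsets, one with neither CD103 nor CD11b (CD103-CD11b-), one with both (CD103+CD11b+), one with CD11b alone (CD103-CD11b+) and one with CD103 alone (CD103+CD11b-). All came from wild type mice at steady state, with no transgene, Cre or treatment in any group, and each population had 3 arrays, 15 in all. The CD103-CD11b- DCs are a mixed population that the study did not divide further. Every population went through EDTA washes, warm digestion with collagenase and sorting before RNA was taken, so no array shows a cell that was not handled in this way. The replicates are described as biological, but the number of mice behind each is not given, and p-values therefore measure the spread between these samples.

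Immediate early genes are switched on within minutes of a stimulus without new protein synthesis, through signals such as MAP kinases and serum response factor, and their mRNAs are mostly short lived. NF-kB feedback genes are direct targets of NF-kB, so that their mRNAs rise when the pathway is active. Some of their proteins restrain the pathway. Heat shock genes encode chaperones that refold damaged proteins and are driven by heat shock factor. In phagocytes of the gut wall these programmes respond to microbial products and cytokines, and enzymatic digestion and sorting of tissue are also known to induce them.

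The labelled populations differed in the mRNAs of CD64, CD103 and CD11b, which were used to sort them. Mean log2 signals of Fcgr1, which encodes CD64, were 8.92 in CD64+ mϕ and 3.83 to 4.80 in the DC subsets. Flt3, the receptor that marks the DC lineage, had 5.31 in CD64+ mϕ and 9.47 to 10.09 in the DC subsets. Itgae, which encodes CD103, had 10.38 and 10.90 in the 2 CD103+ DC subsets and 8.76 and 7.84 in the CD103-CD11b- and CD103-CD11b+ DCs, so the mRNA was lower but not near the level of CD64+ mϕ at 5.09. Itgam, which encodes CD11b, had 10.24 in CD64+ mϕ and 9.56 and 9.53 in the CD103+CD11b+ and CD103-CD11b+ DCs. It had 4.93 in the CD103+CD11b- subset and an intermediate 6.64 in the CD103-CD11b- subset. Signals are on a log2 scale, where a difference of 1 is a 2-fold difference. The levels of different genes are not set against each other, because each probeset binds with its own strength.

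Promoters are shown for some of the genes that held a regulatory motif. Of the 40 genes, 33 were listed in the RefSeq promoter table (GRCm38.p6), and the 250 bases before each start were searched on both strands for a heat shock element (GAANNTTCNNGAA), a cyclic AMP response element (TGACGTCA), an AP-1 site (TGANTCA), a serum response element and a kappa B site. Capitals mark the matches in the sequences below, which read 5′ to 3′ toward the start. Tnfaip3 (chr10:19015411-19015660, minus strand) held 2 kappa B matches and an AP-1 match, Nfkbia (chr12:55492648-55492897, minus strand) and Ier3 (chr17:35821463-35821712, plus strand) each held 1 kappa B match, and Fosl2 (chr5:32136222-32136471, plus strand) held 2 overlapping ones. Dusp5 (chr19:53528895-53529144, plus strand) held 2 adjacent serum response elements, and Hspe1 (chr1:55087898-55088147, plus strand) held 2 overlapping heat shock elements.
Tnfaip3: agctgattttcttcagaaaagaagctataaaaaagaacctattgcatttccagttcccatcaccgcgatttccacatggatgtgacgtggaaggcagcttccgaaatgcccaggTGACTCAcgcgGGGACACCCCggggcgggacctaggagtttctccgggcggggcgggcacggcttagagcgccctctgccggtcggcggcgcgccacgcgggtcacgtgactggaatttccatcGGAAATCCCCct
Nfkbia: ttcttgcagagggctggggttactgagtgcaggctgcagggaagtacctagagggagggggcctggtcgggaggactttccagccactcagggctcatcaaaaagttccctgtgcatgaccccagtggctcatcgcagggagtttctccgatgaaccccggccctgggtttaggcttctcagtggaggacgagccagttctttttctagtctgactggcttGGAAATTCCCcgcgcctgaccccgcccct
Ier3: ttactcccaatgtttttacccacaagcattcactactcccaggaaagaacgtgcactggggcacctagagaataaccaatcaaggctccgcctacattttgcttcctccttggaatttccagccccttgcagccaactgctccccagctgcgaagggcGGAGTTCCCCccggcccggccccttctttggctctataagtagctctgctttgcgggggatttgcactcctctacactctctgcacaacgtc
Fosl2: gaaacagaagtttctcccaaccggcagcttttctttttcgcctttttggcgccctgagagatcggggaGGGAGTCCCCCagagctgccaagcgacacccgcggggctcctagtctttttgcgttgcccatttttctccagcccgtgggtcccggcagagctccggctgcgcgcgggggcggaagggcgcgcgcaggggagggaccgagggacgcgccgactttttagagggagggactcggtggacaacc
Dusp5: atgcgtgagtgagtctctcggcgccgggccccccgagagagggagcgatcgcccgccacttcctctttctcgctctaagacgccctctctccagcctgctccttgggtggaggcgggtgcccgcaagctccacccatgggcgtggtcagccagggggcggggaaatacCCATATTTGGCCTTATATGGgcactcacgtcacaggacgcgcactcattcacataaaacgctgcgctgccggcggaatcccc
Hspe1: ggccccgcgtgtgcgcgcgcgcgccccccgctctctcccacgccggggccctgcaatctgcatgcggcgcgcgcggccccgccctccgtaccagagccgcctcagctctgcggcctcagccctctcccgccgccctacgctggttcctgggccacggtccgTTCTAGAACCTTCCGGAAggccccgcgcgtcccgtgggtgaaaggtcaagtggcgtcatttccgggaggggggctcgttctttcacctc
A kappa B match was found in 6 of the 33 listed genes (18.2%), Fos and Fosb being the others, against 4.46% of 27025 genes with listed promoters. A serum response element was found in 3 (Egr2, Dusp5 and Zfp36), against 1.62% of all genes, and a cyclic AMP response element in 3 (Btg2, Dusp1 and Ppp1r15a), against 1.77%. The AP-1 site was found in 2 (Tnfaip3 and Hspa5), against 7.82%, and the heat shock element only in Hspe1 among the listed genes, against 0.514%. No match was found for Socs3, Nr4a1, Nr4a2, Nr4a3, Gadd45b, Rhob and Klf2, which differ in the comparisons below, nor at another listed start of Tnfaip3. Nfkbiz and Ier2 also differ in the comparisons below, but they were not among the listed genes and were not searched. Hspe1, which is shown, passes in none of those comparisons. A match describes the letters of the window and not the binding of a factor.

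Across the 5 populations, 20 of the 39 measured genes (51.3%) differed in limma's F test at an adjusted p under 0.01, against 19.6% of all genes. All genes are the 19938, of which 7458 had a mean log2 signal over 6, as each of the 39 did. The shares and medians of all genes, here and below, therefore include many dim genes. How much of any excess of the list comes from its brighter signals was not tested. In RNA of sorted populations, fewer expressing cells and less RNA per cell cannot be told apart. All 8 heat shock genes were among the 19 that did not pass, with adjusted p from 0.024 for Hspe1, the mitochondrial co-chaperonin, to 0.70 for Hspa5, the chaperone of the endoplasmic reticulum. The other 11 were Fosb, Jun, Jund, Ier5, Klf6, Myc, Dusp1, Dusp2, Zfp36, Ppp1r15a and Nfkbia. The result for heat shock genes depended on the fit. Hspe1 passed the F test with a block for the replicate number (adjusted p = 0.0055) and with array weights (adjusted p = 0.0057). Without replicate 2 of CD64+ mϕ, Hspe1 (adjusted p = 0.003) and Hsph1 (adjusted p = 0.0042) passed it. The largest spans of population means were those of Nr4a2 (3.54), Ier3 (2.89), Socs3 (2.72) and Nr4a3 (2.68), as differences in log2 signal. Jun and Zfp36, whose protein directs the decay of cytokine mRNAs, had spans of 0.56 and 0.42.

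**Figure D1:**
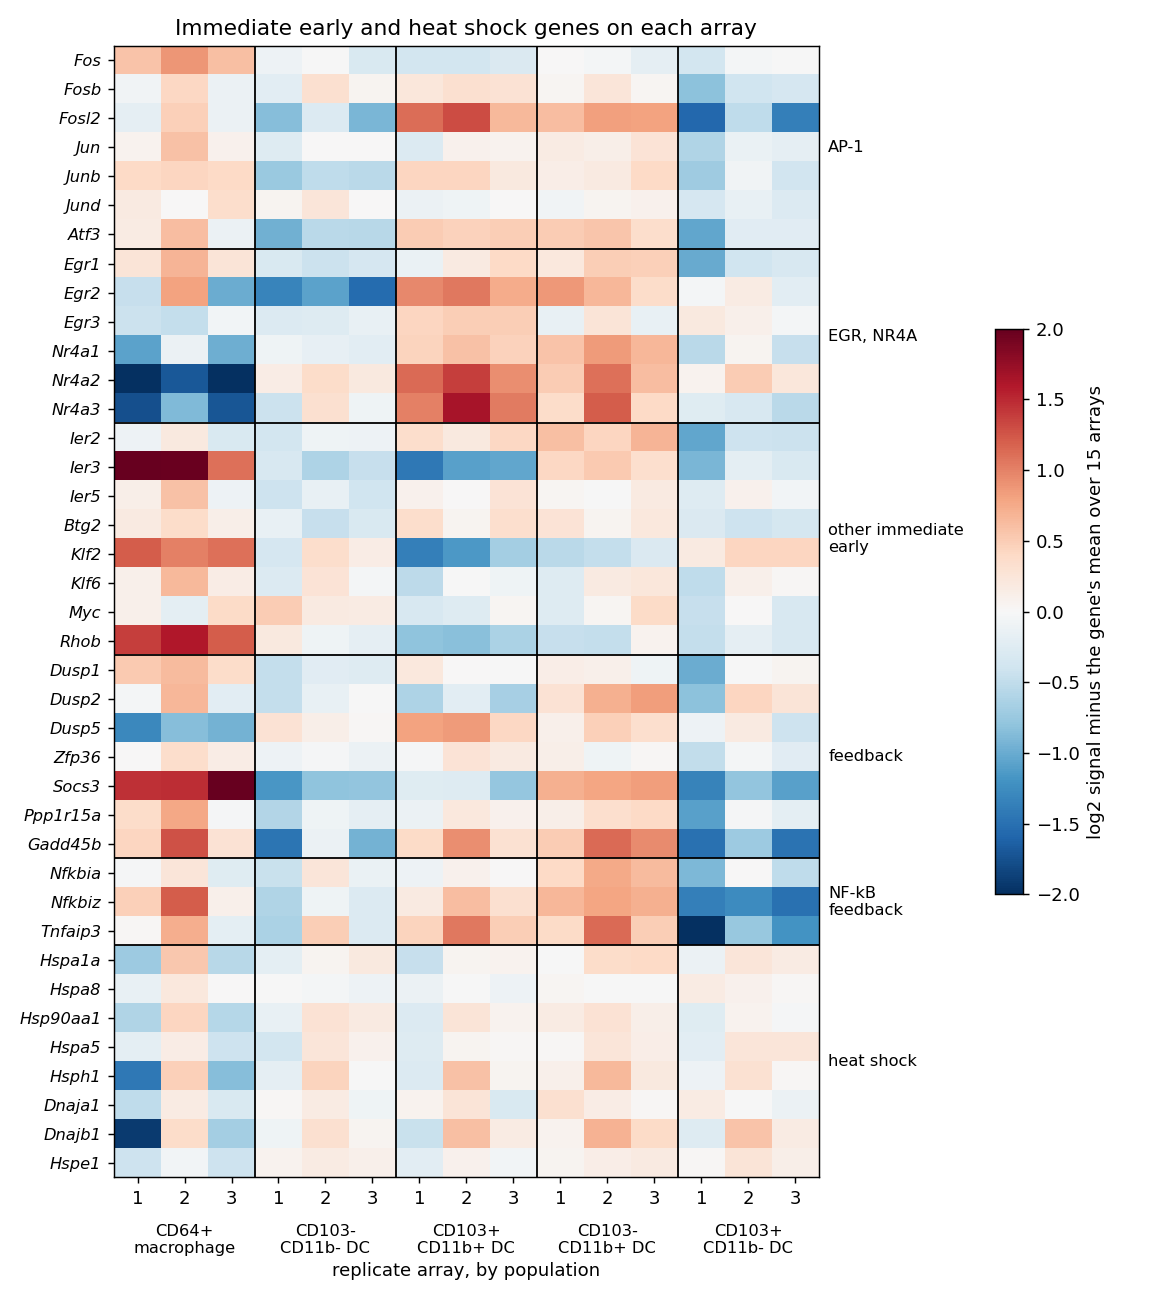
Log2 signal of each of the 39 measured genes (rows, by role) on each of the 15 arrays (columns, 3 replicates per population), as the deviation from the gene's mean over all arrays. Nr4a2, Nr4a3 and Dusp5 are blue in CD64+ mϕ where Ier3, Socs3, Rhob and Klf2 are red, and Fosl2, Nfkbiz and Tnfaip3 are blue in CD103+CD11b- DCs.

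The first question was which of these genes differed between each CD11b+ DC subset and CD103+CD11b- DCs. In CD103+CD11b+ DCs, 5 genes were higher (12.8% of 39, against 1.95% of all genes) and 1 was lower (2.56%, against 1.32%), where passing meant a log2 difference over 1 with an adjusted p under 0.01. In CD103-CD11b+ DCs, 8 were higher (20.5%, against 2.02%) and 0 lower (against 1.30%), with 1 lower gene at an unadjusted p under 0.05 in limma. Without the limit on size, 14 genes were higher in each (against 4.35% and 4.47%) and 1, Klf2, was lower (against 4.38% and 4.03%). The arrays did not overlap for 19 higher genes in CD103+CD11b+ DCs (48.7%, against 16.8%) and 20 in the CD103-CD11b+ subset (51.3%, against 16.8%), and for 4 and 1 lower ones (against 13.7% and 11.6%). Fosl2, Tnfaip3, Gadd45b and Nfkbiz passed in both comparisons, which share the CD103+CD11b- DC arrays. The median log2 difference of the 39 genes was 0.39 for the CD103+CD11b+ subset and 0.48 for the CD103-CD11b+ subset, where the medians of all genes were 0.03 and 0.04. The 2 counts depended on single CD103+CD11b- DC arrays: without its replicate 2, which was high for most of these genes, 9 genes passed as higher for the CD103+CD11b+ subset and 11 for the CD103-CD11b+ subset, and without its replicate 1 the CD103-CD11b+ subset had 5. Markers of other cells differed in the same comparisons. Of 18 macrophage markers, 4 were higher in CD103+CD11b+ DCs (median difference 0.43) and 10 in the CD103-CD11b+ subset (median 1.49) than in the CD103+CD11b- subset, and of 10 plasma and B cell markers 0 and 5 were higher (medians 0.61 and 1.16), with means of 6.41 to 6.91 in CD103+CD11b+ DCs, 6.87 to 7.59 in the CD103-CD11b+ subset and 6.14 to 6.22 in the CD103+CD11b- subset. The part of these cells in the counts was not tested.

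Of the 3 NF-kB feedback genes, 2 were higher in CD103+CD11b+ DCs and all 3 in the CD103-CD11b+ subset. Tnfaip3, which encodes the ubiquitin-editing enzyme A20, had log2 signals of 9.37, 9.98 and 9.43 in CD103+CD11b+ DCs, 9.32, 10.07 and 9.42 in the CD103-CD11b+ subset, and 6.76, 8.17 and 7.74 in the CD103+CD11b- subset. The arrays of the CD11b+ subsets were all above those of CD103+CD11b- DCs, whose own 3 arrays spanned 1.41. The log2 difference was 2.03 for CD103+CD11b+ DCs (SE 0.32, limma adjusted p = 0.0012) and 2.05 for CD103-CD11b+ DCs (SE 0.32, adjusted p = 0.0012). Nfkbiz, which encodes IκBζ, a nuclear protein of the IκB family, had 9.85, 10.29 and 9.99 in CD103+CD11b+ DCs, 10.34, 10.45 and 10.38 in the CD103-CD11b+ subset and 8.30, 8.41 and 8.18 in the CD103+CD11b- subset. Its groups were far apart relative to their spread, with log2 differences of 1.75 (SE 0.11, adjusted p = 1.5e-06) and 2.09 (SE 0.11, adjusted p = 3.9e-07) for the CD103+CD11b+ and CD103-CD11b+ subsets. Nfkbia encodes IκBα, which holds NF-kB in the cytoplasm. It had 11.34, 11.71 and 11.58 in CD103-CD11b+ DCs, against 10.05, 10.95 and 10.44 in the CD103+CD11b- subset, a log2 difference of 1.06 (SE 0.19, adjusted p = 0.0027). This call was lost when any 1 of 4 arrays was left out: without replicate 1 of CD103+CD11b- DCs the difference was 0.85, and without their replicate 3 or without replicate 2 or 3 of CD103-CD11b+ DCs it was 0.97 to 1.04 with adjusted p from 0.0126 to 0.0157. In CD103+CD11b+ DCs Nfkbia had 10.84, 11.04 and 10.95, which overlapped CD103+CD11b- DCs (difference 0.46, adjusted p = 0.15).

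Among the AP-1 factors, Fosl2, which encodes the FOS family protein FRA-2, was the 1 of 7 that passed, in both CD11b+ subsets. It had 9.03, 9.22 and 8.55 in CD103+CD11b+ DCs, 8.53, 8.73 and 8.71 in the CD103-CD11b+ subset, and 6.33, 7.40 and 6.54 in the CD103+CD11b- subset. No array of the CD11b+ subsets fell into the range of CD103+CD11b- DCs, and the log2 differences were 2.18 (SE 0.25, adjusted p = 1.1e-04) for CD103+CD11b+ DCs and 1.90 (SE 0.25, adjusted p = 3.1e-04) for CD103-CD11b+ DCs. Atf3, a stress-induced factor that can pair with JUN proteins, had 12.08 to 12.13 in CD103+CD11b+ DCs, 11.97 to 12.18 in the CD103-CD11b+ subset and 10.58 to 11.39 in the CD103+CD11b- subset. Its differences of 0.99 (adjusted p = 0.0034) and 0.97 (adjusted p = 0.0039) were past the p threshold and short of the log2 difference of 1. The same held for Fosb in both subsets (0.79 and 0.62) and for Junb in CD103+CD11b+ DCs (0.74). Fos itself had differences of -0.20 and 0.06 and passed in neither.

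The NR4A family are orphan nuclear receptors induced by antigen receptor, calcium and cyclic AMP signals, and 2 of its 3 genes each passed in 1 CD11b+ subset. Nr4a3 had 9.24, 9.88 and 9.28 in CD103+CD11b+ DCs, against 8.0, 7.91 and 7.70 in the CD103+CD11b- subset, with no overlap and a log2 difference of 1.60 (SE 0.23, adjusted p = 5.4e-04). In CD103-CD11b+ DCs it had 8.60, 9.44 and 8.64, a difference of 1.03 whose adjusted p of 0.0102 missed the threshold. Nr4a3 did pass there in other limma fits. The adjusted p was 7.7e-04 with a block for the replicate number, 0.0053 without dim genes, 0.0072 with a trended spread and 0.0078 with array weights. Nr4a1 had 11.85, 12.13 and 11.94 in CD103-CD11b+ DCs, against 10.75, 11.33 and 10.82 in the CD103+CD11b- subset, a difference of 1.01 (SE 0.14, adjusted p = 5.9e-04). That difference lay at the limit and was 0.90 to 0.93 without replicate 1 or 3 of CD103+CD11b- DCs or replicate 2 of CD103-CD11b+ DCs. In CD103+CD11b+ DCs Nr4a1 had 11.72, 11.86 and 11.75 (difference 0.81, adjusted p = 0.0025). Of the zinc finger factors of the EGR family, Egr2 differed by 0.95 and 0.66 and Egr1 by 0.73 and 0.97 in the CD103+CD11b+ and CD103-CD11b+ subsets, none over 1.

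Gadd45b, a stress sensor that activates p38 kinase signalling and is also an NF-kB target, had 10.46, 11.00 and 10.38 in CD103+CD11b+ DCs, 10.58, 11.21 and 11.02 in the CD103-CD11b+ subset and 8.57, 9.34 and 8.60 in the CD103+CD11b- subset. The log2 differences were 1.78 (SE 0.23, adjusted p = 3.4e-04) for CD103+CD11b+ DCs and 2.10 (SE 0.23, adjusted p = 9.9e-05) for CD103-CD11b+ DCs, with no overlap in either. Ier2 had 10.18, 10.01 and 10.26 in CD103-CD11b+ DCs, against 8.54, 9.17 and 9.15 in the CD103+CD11b- subset, a difference of 1.20 (SE 0.16, adjusted p = 3.0e-04) that was 0.99 without replicate 1 of CD103+CD11b- DCs. Klf2, a factor linked to quiescence, ran the other way. It had 6.37, 6.59 and 7.06 in CD103+CD11b+ DCs, against 7.93, 8.17 and 8.17 in the CD103+CD11b- subset, a difference of -1.42 (SE 0.15, adjusted p = 7.8e-05). This was the 1 lower call of the comparison, and without replicate 2 of every population its adjusted p was 0.0104 and the count of lower genes 0. In CD103-CD11b+ DCs Klf2 had 7.21, 7.26 and 7.45 and its difference was -0.78 (adjusted p = 0.0052).

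**Figure D2:**
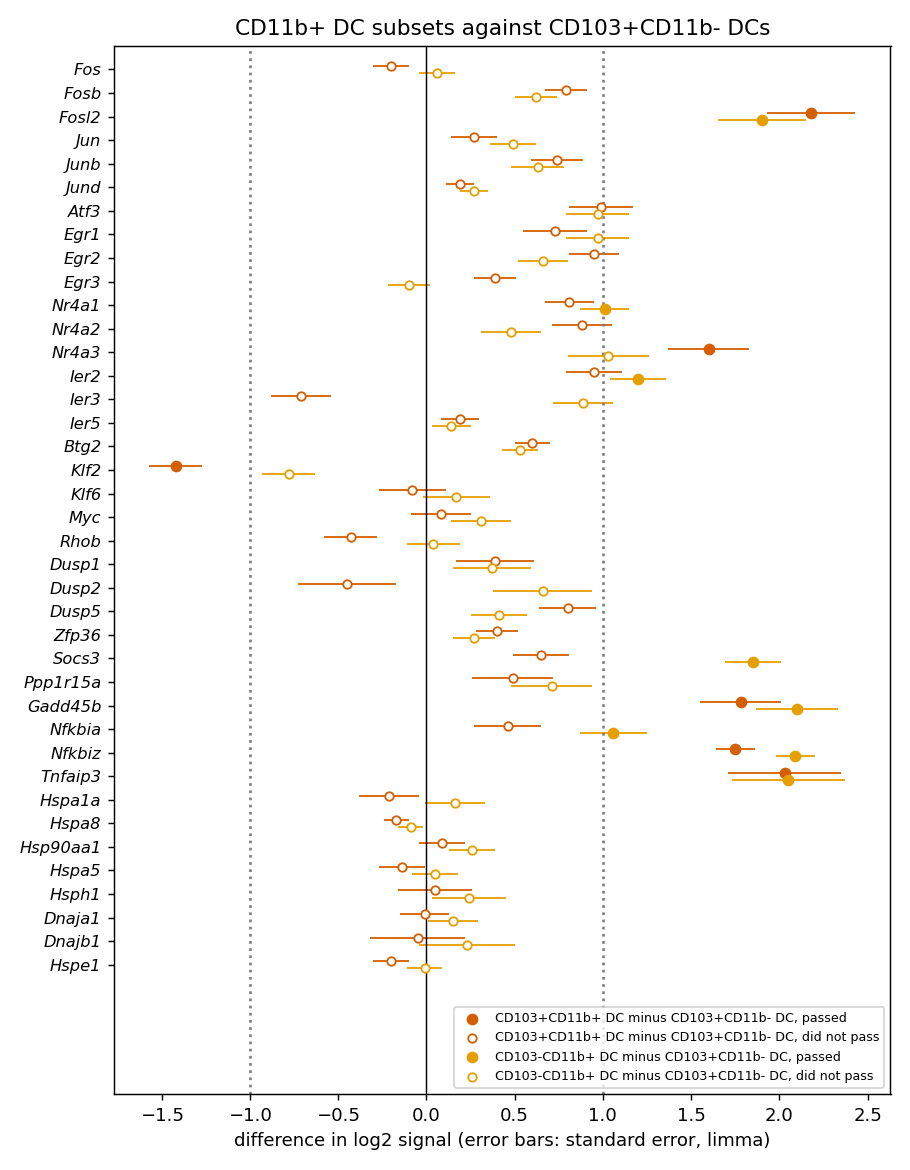
Difference in log2 signal of each measured gene between CD103+CD11b+ DCs (red-orange) or CD103-CD11b+ DCs (yellow) and CD103+CD11b- DCs, with the standard error from limma. Filled points passed, with a difference over 1 (dotted lines) at an adjusted p under 0.01: 5 higher and 1 lower for the CD103+CD11b+ subset and 8 higher for the CD103-CD11b+ subset.

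The 2 CD11b+ subsets were then compared with each other. In CD103+CD11b+ DCs, 0 genes were higher than in CD103-CD11b+ DCs (against 0.231% of all genes; 4 at an unadjusted p under 0.05 in limma) and 2 were lower (5.13%, against 0.306%), with the same counts when no limit on size was set (against 0.577% and 0.637%). The arrays did not overlap for 1 higher gene (against 7.54%) and 11 lower genes (28.2%, against 8.97%). Socs3, which encodes an inhibitor of signalling through cytokine receptors, had 7.73, 7.72 and 7.21 in CD103+CD11b+ DCs, against 8.69, 8.76 and 8.81 in the CD103-CD11b+ subset. The arrays did not overlap, and the log2 difference was -1.20 (SE 0.16, adjusted p = 0.0024). Leaving out any 1 replicate of CD103-CD11b+ DCs left the difference at -1.17 to -1.23 and took the adjusted p to 0.0103 to 0.0158, so that 1 gene remained called. Without replicate 1 of CD103+CD11b- DCs, which enter the estimate of the spread, 3 were called, the added one being Dusp2 with -1.11. Socs3 was also higher in CD103-CD11b+ DCs than in the CD103+CD11b- subset, where it had 6.64, 7.18 and 6.89 (difference 1.85, SE 0.16, adjusted p = 1.2e-05).

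Ier3, which encodes a short-lived regulator of survival and ERK signalling, had 6.39, 6.73 and 6.79 in CD103+CD11b+ DCs, against 8.23, 8.34 and 8.16 in the CD103-CD11b+ subset. The difference was -1.60 (SE 0.17, adjusted p = 6.6e-04), and the 3 arrays of CD103+CD11b+ DCs were the lowest of all 15. Without replicate 2 of every population the adjusted p was 0.0262 for Ier3 and 0.0299 for Socs3, and 0 genes were called lower. In the fit of all 15 arrays Ier3 was the only one of the 39 genes whose CD103 difference depended on CD11b at these thresholds (2.56%, against 1.97% of all genes). Macrophage markers differed between the same subsets. The mean log2 signal of 18 markers was 6.23 to 6.45 in CD103+CD11b+ DCs, 7.06 to 7.48 in the CD103-CD11b+ subset, 6.98, 5.97 and 6.12 in replicates 1, 2 and 3 of the CD103-CD11b- subset, 5.56 to 5.67 in the CD103+CD11b- subset and 10.46 to 10.70 in CD64+ mϕ. Of the 18, 7 were lower in CD103+CD11b+ than in the CD103-CD11b+ subset, the 3 C1q genes among them. Socs3 had means of 9.62 in CD64+ mϕ, 8.75 in CD103-CD11b+ DCs and 7.56 in the CD103+CD11b+ subset. In the CD103-CD11b- and CD103+CD11b- subsets it had 7.05 and 6.90. The means of Ier3 were 9.53, 8.24, 6.64, 7.36 and 7.35 in the same order of populations. The part of macrophage RNA in these differences was not tested.

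**Figure D3:**
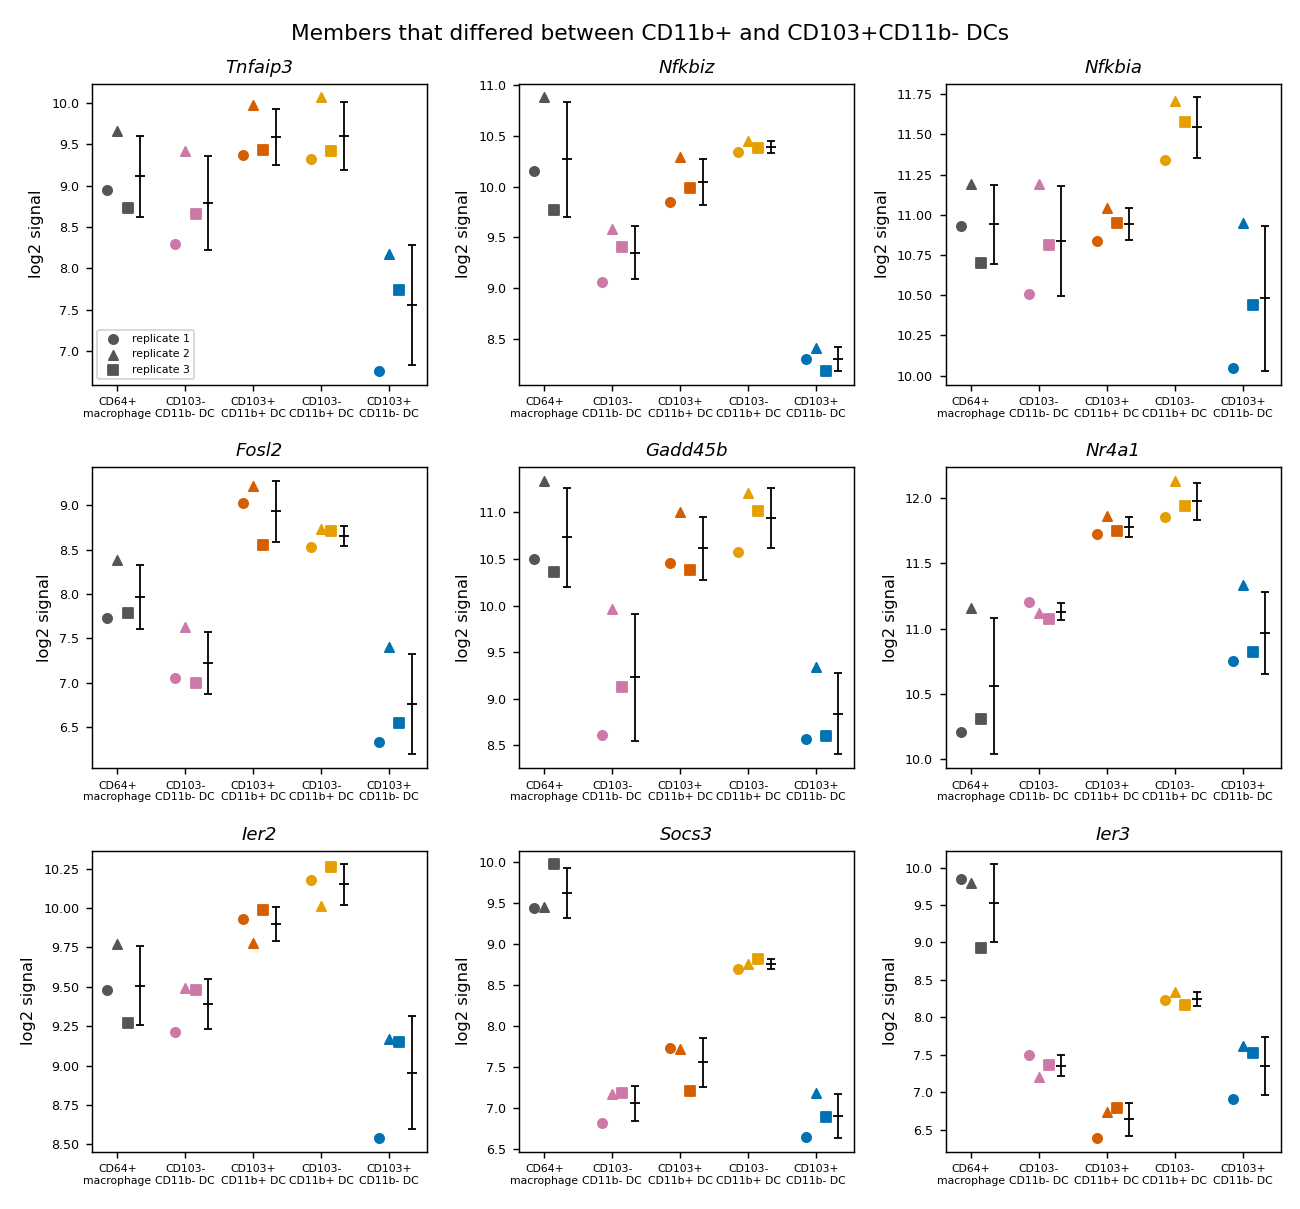
Log2 signal on each array of 9 genes that differed between a CD11b+ DC subset and CD103+CD11b- DCs or between the 2 CD11b+ subsets, with symbols for the replicate number and the mean ± SD of 3 arrays beside them. Tnfaip3, Nfkbiz, Fosl2 and Gadd45b are high in both CD11b+ subsets, whereas Socs3 and Ier3 are high in CD64+ mϕ and, of the DCs, in the CD103-CD11b+ subset. Replicate 2 (triangles) is the highest of its population for Tnfaip3, Nfkbiz, Nfkbia, Fosl2 and Gadd45b throughout.

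CD64+ mϕ were compared with the mean of the 4 DC subsets. Of the 39 genes, 4 were higher (10.3%, against 3.38% of all genes) and 3 lower (7.69%, against 2.19%), and the median log2 difference was 0.17, against 0 over all genes. Without the limit on size, 8 were higher (against 8.44%) and 6 lower (against 9.20%), and the arrays of CD64+ mϕ stood apart from every DC array for 6 higher genes (15.4%, against 5.90%) and 3 lower genes (against 6.54%). Socs3 had 9.44, 9.45 and 9.97 in CD64+ mϕ, all above the highest DC array at 8.81, and its log2 difference was 2.05 (SE 0.14, limma adjusted p = 2.9e-08). Ier3 had 9.85, 9.80 and 8.93 in CD64+ mϕ, also above every DC array, with a difference of 2.13 (SE 0.18, adjusted p = 2.3e-07). Rhob, an immediate early small GTPase of the endosome, had 8.60, 8.81 and 8.42 in CD64+ mϕ, against a highest DC value of 7.41 and a DC mean of 6.86. The difference was 1.75 (SE 0.12, adjusted p = 3.4e-08). Klf2 had 8.96, 8.75 and 8.84 in CD64+ mϕ, against 6.37 to 8.17 over the DC arrays (difference 1.38, SE 0.14, adjusted p = 1.9e-06). Fos had 11.25, 11.56 and 11.28 in CD64+ mϕ, above all DC arrays, which lay between 10.31 and 10.69, and its difference of 0.86 (SE 0.09, adjusted p = 3.8e-06) was under 1.

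Of the 3 NR4A receptors, 2 were lower in CD64+ mϕ. Nr4a2 had 5.98, 6.90 and 5.74 in CD64+ mϕ, while the lowest DC array had 8.67, and the log2 difference was -2.99 (SE 0.19, adjusted p = 1.4e-08), the largest of any of these genes in this comparison. Nr4a3 had 6.48, 7.36 and 6.52 in CD64+ mϕ, below the lowest DC array at 7.70 (difference -1.81, SE 0.22, adjusted p = 1.2e-05). Nr4a1 had 10.21, 11.16 and 10.31 in CD64+ mϕ and overlapped the DC subsets through replicate 2, with a difference of -0.90 (adjusted p = 5.5e-04). Dusp5, a nuclear phosphatase of ERK, had 6.71, 7.15 and 7.06 in CD64+ mϕ, against 7.59 to 8.86 in the DC subsets (difference -1.29, SE 0.13, adjusted p = 2.2e-06). Dusp1, which acts on p38 and JNK, differed by 0.63 in the other direction (adjusted p = 0.0088). The count of lower genes rested on 1 array: without replicate 2 of CD64+ mϕ it was 6, with Nr4a1 at -1.20 (adjusted p = 3.2e-06), Dnajb1 at -1.48 (adjusted p = 0.0016) and Hsph1 at -1.29 (adjusted p = 3.7e-04) added.

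In CD103-CD11b- DCs, compared with the mean of the other 3 DC subsets, 0 genes were higher (against 0.717% of all genes; 4 at an unadjusted p under 0.05 in limma) and 1 was lower (2.56%, against 0.301%). The arrays stood apart for 0 higher genes (against 2.41%) and 1 lower gene (against 1.66%), and without the limit on size 0 were higher (against 1.78%) and 4 lower (against 1.41%). Egr2, a zinc finger factor induced by antigen receptor and growth factor signals, had 7.35, 7.59 and 7.13 in CD103-CD11b- DCs, against 8.45 to 9.72 over the other DC arrays. The groups did not overlap, and the difference was -1.81 (SE 0.26, adjusted p = 4.7e-04). Egr2 was the most uneven of the EGR genes in CD64+ mϕ, where its arrays had 8.21, 9.47 and 7.68. Junb, Atf3 and Socs3 differed by -0.66, -0.84 and -0.69 in CD103-CD11b- DCs with adjusted p from 0.0017 to 0.0098. The mean log2 signal of 10 plasma and B cell markers was 8.13 to 8.72 in CD103-CD11b- DCs, against 6.14 to 7.59 over the other DC arrays, and 7 of the 10 were higher. That of 7 plasmacytoid DC markers was 7.47 to 7.82, against 6.04 to 6.89, and 5 of the 7 were higher. Of 8 markers of conventional type 1 DCs (cDC1), 4 were higher, with means of 8.59 to 9.07 in CD103-CD11b- DCs, against 7.22 to 10.55 over the other DC arrays. The part of these cells in the differences was not tested.

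**Figure D4:**
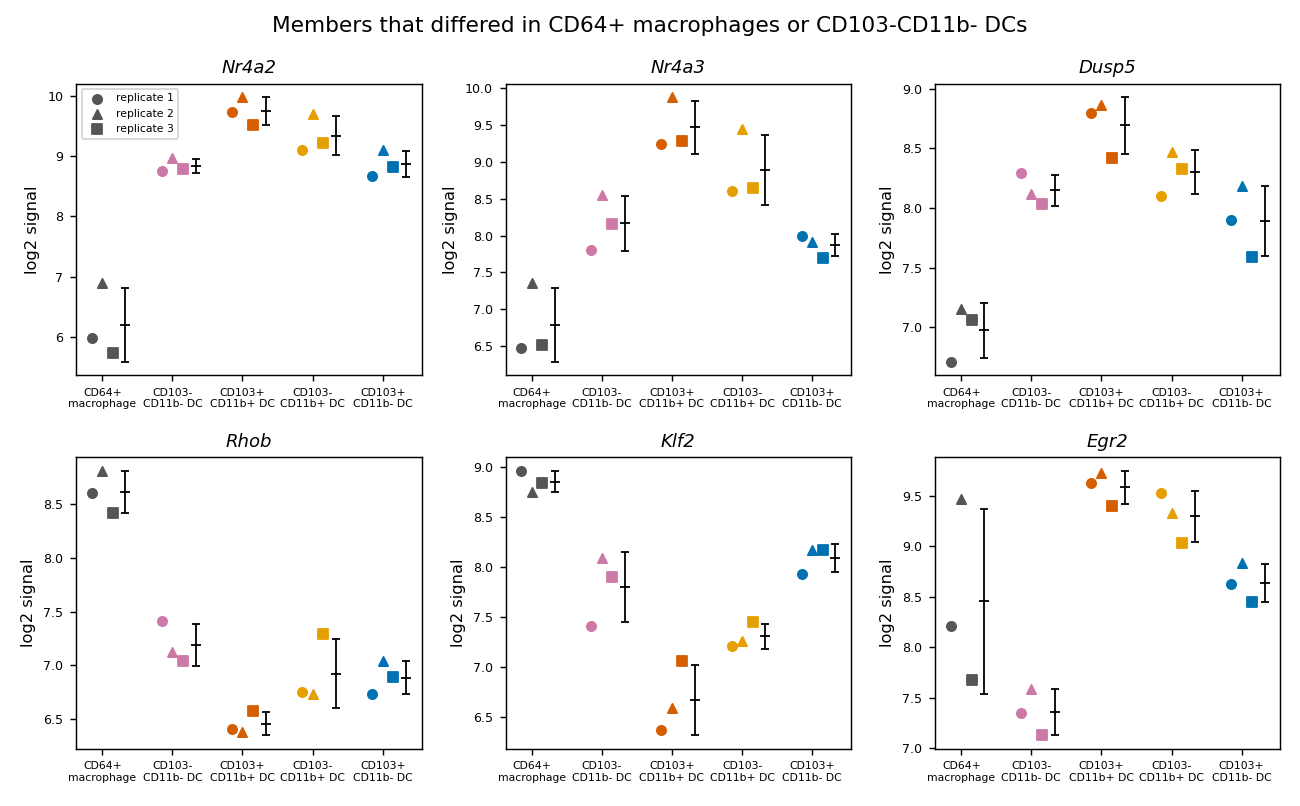
Log2 signal on each array of 6 genes that differed in CD64+ mϕ or CD103-CD11b- DCs, with symbols for the replicate number and the mean ± SD of 3 arrays beside them. Nr4a2, Nr4a3 and Dusp5 are lowest and Rhob and Klf2 highest in CD64+ mϕ, and Egr2 is lowest in CD103-CD11b- DCs at 7.13 to 7.59.

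None of the 8 heat shock genes passed in any of the 5 comparisons when all arrays were used with equal weight, the counts of lower and higher genes both being 0 in limma. With array weights, by which limma counts an array less the more it deviates from its group, Hsph1 (-1.18, adjusted p = 0.0030) and Dnajb1 (-1.5, adjusted p = 0.0025) passed as lower in CD64+ mϕ. At an unadjusted p under 0.05 in limma, 3 of them were lower in CD64+ mϕ (Hsph1, Dnajb1 and Hspe1), 1 was lower in CD103+CD11b+ than in CD103+CD11b- DCs (Hspa8), 1 was lower in CD103+CD11b+ than in CD103-CD11b+ DCs (Hspa1a), and 0 differed in the other 2 comparisons. The methods' t-test gave 1, 0 and 0 at that level in CD103+CD11b+ over CD103+CD11b-, CD103-CD11b+ over CD103+CD11b- and CD103+CD11b+ over CD103-CD11b+ DCs. Hspe1 alone had an adjusted p under 0.01, in CD64+ mϕ, where its difference was -0.37 (adjusted p = 0.0044). Dnajb1, the HSP40 co-chaperone, had 7.47, 9.75 and 8.71 in CD64+ mϕ, against 8.93 to 10.07 over the DC arrays (difference -0.92, SE 0.34, adjusted p = 0.060). Hsph1, the HSP110 exchange factor of HSP70, had 8.89, 10.79 and 9.46 in CD64+ mϕ, against 10.04 to 10.96 (difference -0.75, SE 0.29, adjusted p = 0.074). In both, replicates 1 and 3 of CD64+ mϕ were below every DC array and replicate 2 was among them, and both genes passed as lower without that array, as given above. Hspa1a, the inducible HSP70, had 10.64, 11.90 and 10.81 in CD64+ mϕ and 10.90 to 11.77 over the DC arrays. Hspa8, the constitutive member of the same family, had 12.06 to 12.42 in CD64+ mϕ and 12.09 to 12.37 over the DC arrays. The probeset that Hspa1a shares with Hspa1b had 11.42, 12.58 and 11.29 in CD64+ mϕ and 11.77 to 12.53 in DCs.

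Within the populations, these genes varied with the replicate number. Replicate 2 was the highest of 3 arrays for 33 of the 39 genes in CD64+ mϕ, 27 in CD103-CD11b- DCs, 24 in the CD103+CD11b+ subset, 18 in the CD103-CD11b+ subset and 27 in the CD103+CD11b- subset. Among the 7458 genes with a mean log2 signal over 6, replicate 2 was the highest for 27.1%, 28.2%, 27.8%, 18.3% and 39.5% in the same order of populations. The mean deviation of the 39 genes in replicate 2 from their population mean was 0.35, 0.15, 0.13, 0.09 and 0.23, where that of the 7458 genes was -0.06 to 0.03. In all 5 populations, 9 of the 39 genes (23.1%) were highest in replicate 2, against 125 of the 7458 (1.68%), and 0 of the 39 were highest in replicate 1 or in replicate 3 throughout (0.858% and 1.03% of the 7458). The 9 were Fosl2, Nr4a2, Gadd45b, the 3 NF-kB feedback genes, and the heat shock genes Hsp90aa1, Hsph1 and Dnajb1. The labels do not say what a replicate number stands for, so sorting day, animals and array run cannot be told apart.

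The deviation was widest in CD64+ mϕ. All 8 heat shock genes were highest in replicate 2 there, by a mean of 0.59 above the population mean, and Dnajb1 and Hsph1 spanned 2.28 and 1.90 between arrays. The same 8 genes deviated in replicate 2 by 0.24 in CD103+CD11b+ DCs, 0.16 in the CD103-CD11b- subset, 0.15 in the CD103+CD11b- subset and 0.12 in the CD103-CD11b+ subset. Markers of other cells moved with it in part. The mean log2 signal of 11 pancreatic acinar genes in replicates 1, 2 and 3 was 4.77, 6.92 and 4.96 in CD64+ mϕ, 5.33, 8.41 and 6.12 in CD103-CD11b- DCs, 5.29, 7.63 and 6.82 in the CD103+CD11b+ subset, 4.83, 4.86 and 7.38 in the CD103-CD11b+ subset, and 4.84, 8.69 and 5.20 in the CD103+CD11b- subset. It was thus highest in replicate 2 in 4 of 5 populations and in replicate 3 in CD103-CD11b+ DCs. In CD64+ mϕ, 23 epithelial markers had a mean of 7.91 in replicate 2, against 6.44 and 6.40 in replicates 1 and 3. In the DC subsets replicate 2 was not the highest for these markers. Their means in replicates 1, 2 and 3 were 7.14, 6.69 and 7.02 in CD103-CD11b- DCs and 7.23, 7.39 and 7.87 in the CD103+CD11b+ subset. They were 6.80, 6.58 and 6.85 in the CD103-CD11b+ subset and 7.29, 7.24 and 7.54 in the CD103+CD11b- subset. For 10 plasma and B cell markers, the means in replicates 1, 2 and 3 were 7.07, 7.95 and 7.16 in CD64+ mϕ. In CD103-CD11b- DCs they were 8.13, 8.72 and 8.14, and in each remaining DC subset replicate 2 was the lowest. For 6 DC markers, they were 6.21, 6.65 and 6.17 in CD64+ mϕ, and replicate 2 was the highest in no DC subset. The 18 macrophage markers had 10.70, 10.46 and 10.65 in CD64+ mϕ. The part of these cells in the deviation was not tested.

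**Figure D5:**
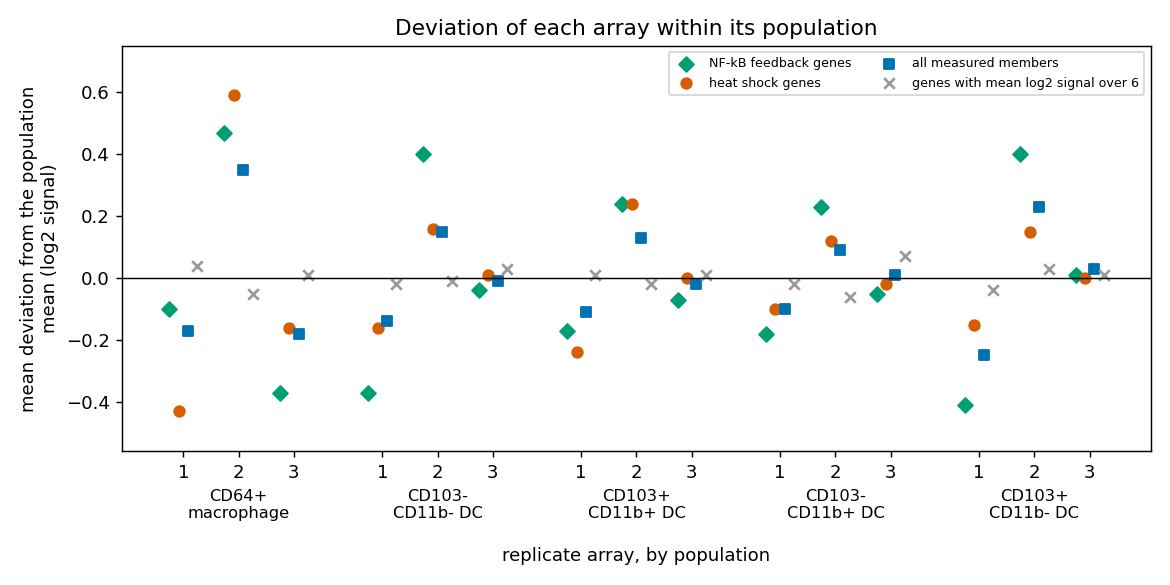
Mean deviation in log2 signal of each array from its population mean, for the 3 NF-kB feedback genes, the 8 heat shock genes, all 39 measured genes, and the 7458 genes with a mean log2 signal over 6. Replicate 2 lies above 0 for all 3 gene groups in each population, up to 0.59 for heat shock genes in CD64+ mϕ, while the 7458 genes stay between -0.06 and 0.07.

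Genes that work beside the listed ones were examined for context. Of all genes, 1.95% passed as higher and 1.32% as lower in CD103+CD11b+ over CD103+CD11b- DCs. In CD103-CD11b+ over CD103+CD11b- DCs these shares were 2.02% and 1.30%, and in CD103+CD11b+ over CD103-CD11b+ DCs 0.231% and 0.306%. They were 0.717% and 0.301% in CD103-CD11b- DCs and 3.38% and 2.19% in CD64+ mϕ. Of 28 further immediate early genes, 3 passed as higher and 1 as lower in CD103+CD11b+ over CD103+CD11b- DCs. Plk2, a stress-induced polo-like kinase, differed by 2.08 (adjusted p = 9.6e-06), and Sgk1, a kinase induced by glucocorticoids, by -1.28 (adjusted p = 4.9e-04). Plk2 also passed in CD103-CD11b+ DCs, with Csrnp1, as the 2 of 28 that did. Of the 28, 1 was higher in CD103-CD11b- DCs, 3 were higher in CD64+ mϕ and 0 differed between the 2 CD11b+ subsets. Of 18 further NF-kB pathway genes, 2 were higher in each CD11b+ subset than in CD103+CD11b- DCs. Tnip3, a partner of A20, was common to both, with mean log2 signals of 7.17 in CD103+CD11b+ DCs, 8.11 in the CD103-CD11b+ subset and 5.54 in the CD103+CD11b- subset. Of the same 18, 2 were lower in CD103-CD11b- DCs (Tnfaip2 and Tnip3) and 0 differed between the 2 CD11b+ subsets. In CD64+ mϕ 1 was higher (Ikbke) and 2 were lower (Traf1 and Tnip3). Of 23 further chaperones and heat shock factors, 1 was higher in each CD11b+ subset, Dnajb4 in both, and 0 passed in the other 3 comparisons. Of 20 genes of the unfolded protein response, 1, the disulfide isomerase Pdia4, was higher in CD103-CD11b- DCs (1.08, adjusted p = 1.4e-04), and 0 passed in the other 4 comparisons. Of 14 upstream kinases and factors, Map2k6, a kinase that activates p38, was lower in both CD11b+ subsets (-1.14 and -1.45) and in CD64+ mϕ (-1.16), and Elk3 was higher in CD103-CD11b+ DCs (1.05).

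Rapidly induced cytokines and chemokines were counted in the same way, against the same shares of all genes. Of 11, 5 passed as higher in CD103+CD11b+ DCs and 7 in the CD103-CD11b+ subset than in the CD103+CD11b- subset, and 0 were lower. Osm was lower in CD103+CD11b+ than in CD103-CD11b+ DCs and Tnf was lower in CD103-CD11b- DCs, each the 1 of 11 that passed there. Ptgs2, the inducible cyclooxygenase, had mean log2 signals of 11.94 in CD103+CD11b+ DCs, 11.77 in the CD103-CD11b+ subset and 8.32 in the CD103+CD11b- subset, with differences of 3.63 (adjusted p = 9.5e-07) and 3.45 (adjusted p = 1.2e-06). Il1b differed by 2.53 and 2.61 in the same comparisons. In CD64+ mϕ, 8 of the 11 were higher and 1, Il6, was lower than the mean of the 4 DC subsets. Il10, the anti-inflammatory cytokine of gut mϕ, had 7.96 in CD64+ mϕ and 4.32 to 4.80 in the DC subsets, a difference of 3.36 (adjusted p = 3.3e-10).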

How the data were processed

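Total RNA of sorted cells was amplified and hybridized to GeneChip Mouse Gene 1.0 ST arrays, 1 per sample, whose number limits the precision. Per the labels, the authors made the deposited log2 signals with RMA, which corrects background, quantile-normalizes the arrays and summarizes probes, and this removes differences in total RNA between populations. Probesets were named through the platform annotation. Of 35556, 21789 had 1 symbol, and the one with the highest mean per gene was kept (19938 genes). Median log2 signals were 4.74 to 4.86.

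Differences were fitted with limma 3.58.1 in R 4.3.3 (lmFit, eBayes) over all genes, on 9 arrays for comparisons among the 3 DC subsets positive for CD103, CD11b or both and on 15 for the rest. The rule for a call was a log2 difference over 1 with p under 0.01 after Benjamini-Hochberg adjustment. The procedure was tested on simulated data, from which no result or error rate is given here. The text names every listed gene that passed, heat shock genes, and other genes as examples of their lists. Alternatives were the replicate block, centring, mean probesets, a filter on dim genes, a trended spread, array weights, other thresholds, the methods' t-test and leaving out each array. The genes and lists were chosen with earlier results of these data known. Promoters came from RefSeq, GRCm38.p6.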

Additional observations from a re-analysis of the deposited data

Results flagged for a closer look

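The CD103 difference of Ier3 was not the same with and without CD11b. It was -1.60 on the log2 scale for CD103+CD11b+ over CD103-CD11b+ DCs and -0.01 for CD103+CD11b- over CD103-CD11b- DCs, and the difference of the differences was -1.60 (SE 0.31, limma interaction over 15 arrays, adjusted p = 0.0070). This interaction was added after the data were seen, 1.97% of all genes passed it, and Ier3 was the only one of the 39 measured genes that did. All 3 CD103+CD11b+ DC arrays were below all 3 CD103-CD11b+ DC arrays. Without replicate 2 of every population, the limma adjusted p for this pair of subsets was 0.0262. The mean of 18 macrophage markers also differed between them, at 6.23 to 6.45 and 7.06 to 7.48, and its part was not tested.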

How the results depend on the processing

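No call on a named gene reversed under any alternative run. The replicate block gave 5 higher and 1 lower gene in CD103+CD11b+ over CD103+CD11b- DCs, 9 higher in CD103-CD11b+ over CD103+CD11b- DCs and 3 lower in CD103+CD11b+ over CD103-CD11b+ DCs. The added genes were Nr4a3 among the higher and Dusp2 among the lower, and the block added Fosb, Nfkbia and Hspe1 to the F test. The main fit did not take replicate numbers as pairs, so a shift shared by a replicate number enters its spread. Of 30 same-numbered pairs of samples, 18 correlated over 0.1 (mean 0.12, lowest -0.09), and the mean of the 60 other pairs was -0.06. Testing against a log2 difference of 1 with limma's treat left 1 higher and 0 lower in CD103+CD11b+ over CD103+CD11b- DCs, 2 higher in CD103-CD11b+ over CD103+CD11b- DCs, 0 lower in CD103+CD11b+ over CD103-CD11b+ DCs, 0 lower in CD103-CD11b- DCs and 1 lower in CD64+ mϕ, a stricter test by construction. Array weights gave 6 lower in CD64+ mϕ, the same 3 genes and Nr4a1, Dnajb1 and Hsph1. The methods' t-test at an unadjusted p under 0.05 gave, in the order of the DC comparisons above, 17 higher and 4 lower, 18 higher and 1 lower, and 1 higher and 6 lower. After Benjamini-Hochberg adjustment it gave 3 higher, 3 higher and 1 lower, and 0 lower. Leaving out 1 array gave 5 to 9 higher in CD103+CD11b+ and 5 to 11 in CD103-CD11b+ over CD103+CD11b- DCs, 1 to 3 lower in CD103+CD11b+ over CD103-CD11b+ DCs, 3 to 6 lower in CD64+ mϕ and 20 to 24 in the F test. Without replicate 2 of every population, a setting added after the data were seen, 0 genes were lower in CD103+CD11b+ DCs in either comparison, as Klf2, Ier3 and Socs3 had adjusted p of 0.0104, 0.0262 and 0.0299, while 2 were lower in CD103-CD11b- DCs (Gadd45b at -1.07 was added) and 6 in CD64+ mϕ. The cause of these shifts was not tested. Counts in this paragraph, and those at an unadjusted p further above, are given without the share of all genes. They therefore do not compare the list with other genes.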
